A study of Mus musculus with 2 samples.

Results

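The genes described here are 10 transcripts of the feedback arm of the Ras and ERK pathway, taken by gene name from a table of 39017 genes: the Sprouty genes Spry1, Spry2 and Spry4, the SPRED genes Spred1 and Spred2, the PEA3 factors Etv4 and Etv5, and Errfi1, Rasa2 and Phlda1. All 10 had at least 20 counts summed over both libraries, as did 13880 genes of the table, which are called measured below. RNA came from Lin- Sca-1+ c-Kit+ (LSK) bone marrow cells, a sorted fraction that contains the haematopoietic stem cells and their multipotent progeny. The labels give 1 wild-type (WT) library from 12 pooled mice and 1 miR-146a-/- library from 6 pooled mice. All mice were C57BL/6J and 10 to 14 weeks old, the miR-146a-/- label names no promoter or Cre, and no further allele or treatment is named for either group. With 1 library and 1 pool per genotype, no difference has a replicate check, and every statement compares these libraries rather than the genotypes.

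Growth factor receptors such as KIT and FLT3, on which stem and progenitor cells depend, switch on the small GTPase Ras, which drives the kinases RAF, MEK and ERK. ERK activity induces genes whose products damp the same route, so transcripts of this feedback arm are widely used as a readout of recent ERK signalling. Sprouty proteins interfere between receptor and RAF, SPRED proteins bring the Ras inactivator neurofibromin to the membrane, MIG6 (the product of Errfi1) binds and inhibits the EGF receptor kinase, and the product of Rasa2 stimulates the GTPase activity of Ras. ETV4 and ETV5 are transcription factors of the ETS family that are made in response to ERK.

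The short sequences shown first are those by which the microRNA could reach these transcripts, because the genotypes differ in miR-146a. The mature microRNA is given as in RefSeq (GRCm38.p6, chr11:43374435-43374456, minus strand), 5′ to 3′, with its seed, bases 2 to 8, in capitals. Matches to that seed (the letters AGTTCTC on the transcript strand) were looked for in 1 annotated 3′ untranslated region per gene, the longest in GENCODE M21. Of the 10 genes, 2 held a match. The Spred1 window lies at chr2:117180622-117180648 on the plus strand and the Etv5 window at chr16:22382427-22382453 on the minus strand (GRCm38), each with the match in capitals.
miR-146a-5p: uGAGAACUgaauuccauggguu
Spred1: cctgatctgtAGTTCTCagaggatgct
Etv5: ctacgtgtatAGTTCTCcatgctcact

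These matches, at base 2683 and base 1027 of the untranslated regions, are descriptions of letters and not shown sites of repression. Of 12249 measured protein-coding genes with such a region, 12.55% held at least 1 match.

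Across the 10 genes the libraries differed in part. Phlda1, Spry1 and Spry4 were higher in the miR-146a-/- library, at 9.96-fold, 2.16-fold and 2.22-fold. Errfi1 had a similar ratio of 2.17-fold but few counts. Spry2, Spred2 and Etv5 lay between 1.17-fold and 1.43-fold, Spred1 at 1.05-fold and Rasa2 at 0.751-fold. Etv4 was close to undetected in both libraries.

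The call rule asked that the entire 95% counting interval of a ratio lie beyond 1.5-fold. By that rule 3 of the 10 genes were higher, 0 lower and 7 neither. Of all measured genes 5.35% were called higher and 1.53% lower, 6.87% in all. The median log2 ratio of the 10 genes was 0.47, against -0.01 over all measured genes, and 8 of them had a positive ratio. Levels are CPM values on TMM-scaled library sizes (normalised CPM), and ratios are miR-146a-/- over WT on that scale.

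Facts of the libraries as a whole bear on these ratios. Depth was 35069136 (WT) and 22231389 (miR-146a-/-) counts, and protein-coding genes held 81.35% (95% Clopper-Pearson interval 81.34 to 81.37%) and 51.5% (51.48 to 51.53%) of them. Scaled by total counts alone, the median log2 ratio of all genes was -0.83. The values of the 10 genes on that scale are given beside each gene below where the call or direction changed. Mir146 itself had 0 counts in both libraries, so the deletion could not be checked. The LSK markers Kit (558 and 728 normalised CPM, WT first) and Ly6a, which encodes Sca-1 (66.8 and 74.7), were well detected, and of 10 such markers 0 were called. Defining genes of T cells (Cd3e, Cd3d, Cd3g and Cd8a) had 0 counts in both. Of 6 measured neutrophil markers 3 were lower, with a summed level of 13.5 and 6.28 normalised CPM. Of 8 monocyte and macrophage markers 1 was higher and 0 lower, summing to 124 and 148. Erythroid markers summed to 4.01 and 4.67, B cell and plasma cell markers to 52.8 and 54.7 with 1 of 4 lower, and T cell and NK cell markers to 2.79 and 5.86 with 1 of 2, Cd4, higher. Mast cell, basophil and eosinophil markers summed to 3.48 and 4.79, and stromal and endothelial markers to 152 and 195, with 0 of 3 and 0 of 5 called. Xist counts were 10988 (WT) and 49105 (miR-146a-/-), and 4 genes of the Y chromosome (Ddx3y, Eif2s3y, Kdm5d and Uty) summed to 4540 and 284, a difference that goes with genotype in every ratio; the labels do not give sex. The part of these marker and sex-linked differences in any ratio below was not tested. In bulk RNA, fewer cells of a type and less transcript per cell cannot be told apart.

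**Figure D1:**
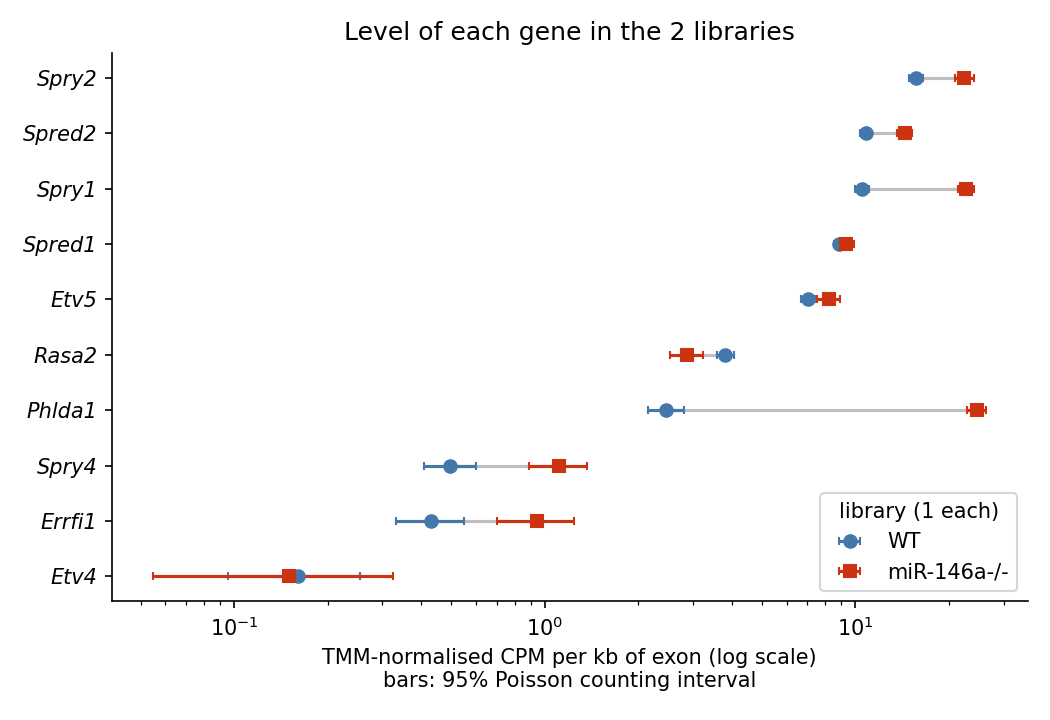
Level of each of the 10 genes in the WT library (circles) and the miR-146a-/- library (squares), as TMM-normalised CPM per kilobase of exon on a log axis, ordered by the WT level, with 95% Poisson counting intervals and no replicates. Phlda1 lies at 2.46 in WT and at 24.5 beside Spry1 and Spry2 in the miR-146a-/- library, while the markers of Spred1 and Etv4 nearly coincide.

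Levels can be compared between genes only per length, here per kilobase of the merged exons of protein-coding transcripts. In the WT library Spry2 was the highest of the 10 at 15.6 normalised CPM per kilobase. Spred2 (10.8) and Spry1 (10.5) came next, with overlapping counting intervals. Spred1 (8.87), Etv5 (7.03), Rasa2 (3.81) and Phlda1 (2.46) followed in that order with intervals that did not overlap. Spry4 (0.497) and Errfi1 (0.431) overlapped each other, and Etv4 (0.161) was the lowest.

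In the miR-146a-/- library the order differed at the top. Phlda1 came first at 24.5 normalised CPM per kilobase (95% interval 22.9 to 26.3), Spry1 was at 22.7 (21.4 to 24.1) and Spry2 at 22.4 (20.9 to 24.0). These 3 overlapped, so their order is not resolved by the counts. Spred2 (14.4), Spred1 (9.33), Etv5 (8.195) and Rasa2 (2.86) followed, of which Spred1 and Etv5 overlapped. Spry4 (1.11), Errfi1 (0.943) and Etv4 (0.1496) were again the 3 lowest, the first pair with overlapping intervals. Both libraries thus held SPRED, Spry1, Spry2 and Etv5 transcripts at moderate levels and Spry4, Errfi1 and Etv4 transcripts at low ones, and Phlda1 was the gene whose place changed most, from the seventh to the first.

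Among the Sprouty genes, Spry1 (ENSMUSG00000037211, chromosome 3, 37639947 to 37644598, plus strand, GRCm38) had 1426 WT counts and 1104 miR-146a-/- counts. These are 30.6 and 66.1 normalised CPM, higher in the miR-146a-/- library by a log2 ratio of 1.11 (95% Clopper-Pearson interval 0.995 to 1.224). The ratio exceeded that of 95.3% of measured genes. By total counts it was 0.29, no longer called. A transcript model, Gm42922, overlaps Spry1 on the other strand and has no row in the table.

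Spry2 (ENSMUSG00000022114, chromosome 14, 105891947 to 105896819, minus strand) had 1520 and 781 counts, or 32.6 and 46.7 normalised CPM. Its log2 ratio of 0.52 (0.39 to 0.64) reached 1.5-fold only with its upper bound and was not called. By total counts it changed sign, to -0.30.

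Spry4 (ENSMUSG00000024427, chromosome 18, 38586247 to 38601415, minus strand) had 110 and 88 counts, or 2.36 and 5.27 normalised CPM. Its log2 ratio was 1.15 (0.74 to 1.57), higher in the miR-146a-/- library. With 198 summed counts it is among the measured genes with under 200, of which 9.56% were called higher, against 4.11% of those with at least 200. The call ended when libraries were scaled by total counts (0.33) or by protein-coding counts alone (0.99).

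Because both genes of a pair are read in the same libraries, the ratio of their ratios does not depend on library scaling. The conditional odds ratio of counts with its exact 95% interval was computed for 15 pairs chosen after the values were seen. It covers counting error only, is not adjusted for the length and GC content of transcripts, and has no replicate check. The Spry1 ratio was 1.51 times that of Spry2 (1.34 to 1.70), and the Spry4 ratio 1.56 times that of Spry2 (1.15 to 2.11). Spry1 and Spry4 could not be told apart, at 0.968 times (0.716 to 1.31). The split of Sprouty read counts, which is not corrected for gene length and so is not the make-up of transcript, differed too. Spry1 gave 46.7% of these counts in WT (exact binomial interval 44.9 to 48.5%) and 56.0% in miR-146a-/- (53.7 to 58.2%). Spry2 gave 49.7% (47.95 to 51.5%) and 39.6% (37.4 to 41.8%), and Spry4 3.60% (2.97 to 4.32%) and 4.46% (3.59 to 5.47%).

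**Figure D2:**
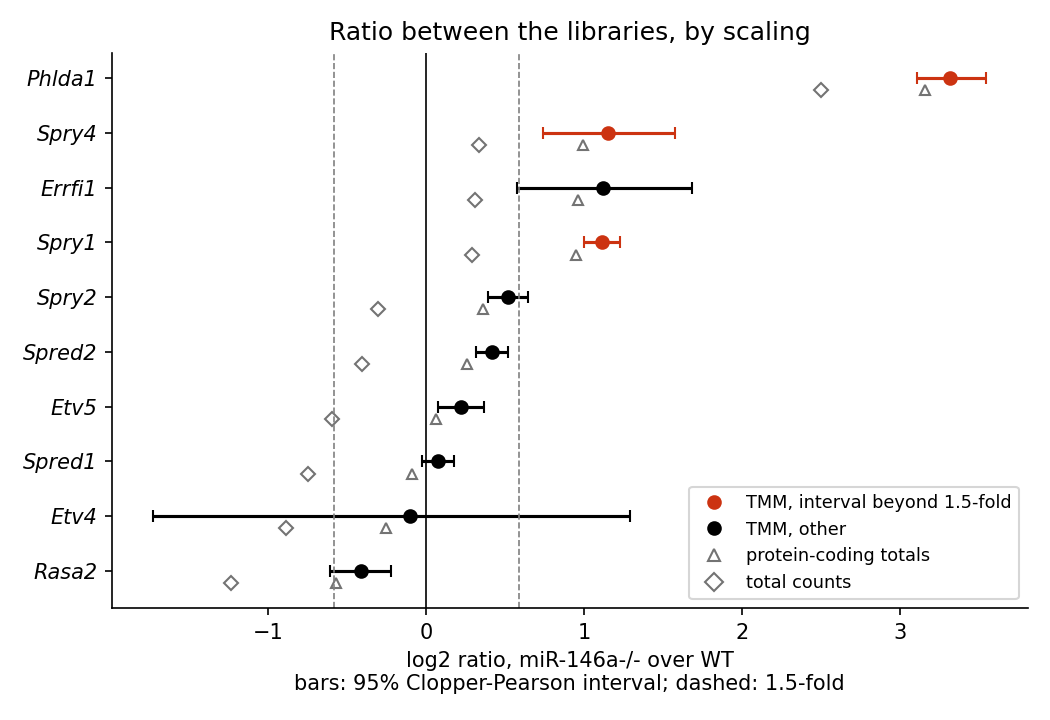
Log2 ratio of miR-146a-/- over WT for the 10 genes with 95% Clopper-Pearson intervals under TMM scaling (filled circles), and the same ratio scaled by protein-coding totals (triangles) and by total counts (diamonds), with dashed lines at 1.5-fold. Intervals of Phlda1, Spry4 and Spry1 lie wholly beyond the upper line, that of Errfi1 begins just inside it, and by total counts Phlda1 alone stays beyond it.

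The SPRED genes showed smaller differences. Spred1 (ENSMUSG00000027351, chromosome 2, 117121374 to 117182279, plus strand) had 2804 WT counts and 1058 miR-146a-/- counts, or 60.2 and 63.3 normalised CPM. Its log2 ratio of 0.07 had an interval from -0.03 to 0.18, which holds no difference. Spred2 (ENSMUSG00000045671, chromosome 11, 19924375 to 20024026, plus strand) had 2321 and 1111 counts, or 49.8 and 66.5 normalised CPM, with a log2 ratio of 0.42 (0.31 to 0.52). Neither was called. By total counts Spred1 was called lower at -0.75 and Spred2 lay at -0.41.

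On the comparison that is free of scaling, the Spred2 ratio was 1.27 times that of Spred1 (1.15 to 1.41). The Sprouty genes summed went from 0.596 counts per SPRED count in WT to 0.910 in miR-146a-/-, a factor of 1.53 (1.41 to 1.65). Spry1 stood apart from both SPRED genes, at 2.05 times Spred1 (1.84 to 2.28) and 1.62 times Spred2 (1.45 to 1.80). Spry2 differed from Spred1 by 1.36 times (1.22 to 1.53) but not detectably from Spred2, at 1.07 times (0.958 to 1.20). Adjusted for the length and GC content of transcripts, which these pairs are not, the log2 ratios of Spry2 and Spred2 were 0.62 and 0.38.

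Of the PEA3 factors, Etv5 (ENSMUSG00000013089, chromosome 16, 22381309 to 22439719, minus strand) had 1344 and 562 counts, or 28.9 and 33.6 normalised CPM. Its log2 ratio of 0.22 (0.08 to 0.36) was not called and became -0.60 by total counts. Etv4 (ENSMUSG00000017724, chromosome 11, 101769742 to 101785371, minus strand) had 18 and 6 counts. Its log2 ratio of -0.10 had an interval from -1.73 to 1.29, so the counts are too few to say whether it differed by as much as 2-fold either way. The Spry1 ratio was 1.85 times that of Etv5 (1.63 to 2.11).

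Both genes with a seed match to the microRNA, Spred1 and Etv5, were among the genes not called, at 0.07 and 0.22. The 3 called genes held no 7-base match. The shorter match GTTCTC, to bases 2 to 7 of the microRNA, occurred in Spry1, Spry4, Spred1, Etv5 and Errfi1, and in 33.56% of the 12249 genes. Over all 12249 genes with a 3′ untranslated region, 4.75% of the genes with a 7-base match were higher, against 4.24% of those without, and 0.325% against 1.61% were lower. The genes with a match had longer regions, with a median of 2649 bases against 1028.

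Errfi1 (ENSMUSG00000028967, chromosome 4, 150853919 to 150868892, plus strand) had 65 WT counts and 51 miR-146a-/- counts, or 1.40 and 3.05 normalised CPM. Its log2 ratio of 1.12 (0.57 to 1.68) matched those of Spry1 and Spry4 in size, but the lower bound lay just under the threshold of 0.58 and the gene was not called. It was called, at 1.14, once ratios were adjusted for the length and GC content of transcripts. Its ratio was 1.01 times that of Spry1, with an interval from 0.682 to 1.499.

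Rasa2 (ENSMUSG00000032413, chromosome 9, 96539300 to 96631617, minus strand) was the lowest of the 10 by ratio. It had 1032 and 278 counts, or 22.2 and 16.6 normalised CPM, and a log2 ratio of -0.41 (-0.61 to -0.22), which was not called. By total counts it was called lower at -1.23. A processed pseudogene, Gm19280, overlaps Rasa2 on the other strand and has no row in the table. The Spry1 ratio was 2.87 times that of Rasa2 (2.46 to 3.37) and the Spred1 ratio 1.40 times (1.20 to 1.63), values that no scaling alters.

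Phlda1 (ENSMUSG00000020205, chromosome 10, 111506286 to 111508645, plus strand) encodes a protein with a pleckstrin homology-like domain, and its transcript is commonly read as an output of ERK. It had 223 WT counts and 799 miR-146a-/- counts, or 4.79 and 47.8 normalised CPM. The log2 ratio of 3.32 (3.10 to 3.54) exceeded that of 99.8% of measured genes. Phlda1 was called higher under each of the scalings, filters and folds tried. Its log2 ratio ran from 2.496 by total counts to 3.36 with the length and GC adjustment. Its ratio was 4.63 times that of Spry1 (3.90 to 5.50), and its interval lay wholly above those of the other 9 genes. A long non-coding gene, Gm28592, overlaps Phlda1 on the other strand and has no row in the table. Whether strand was used in counting is not given in the sources used here, so its reads could be included.

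**Figure D3:**
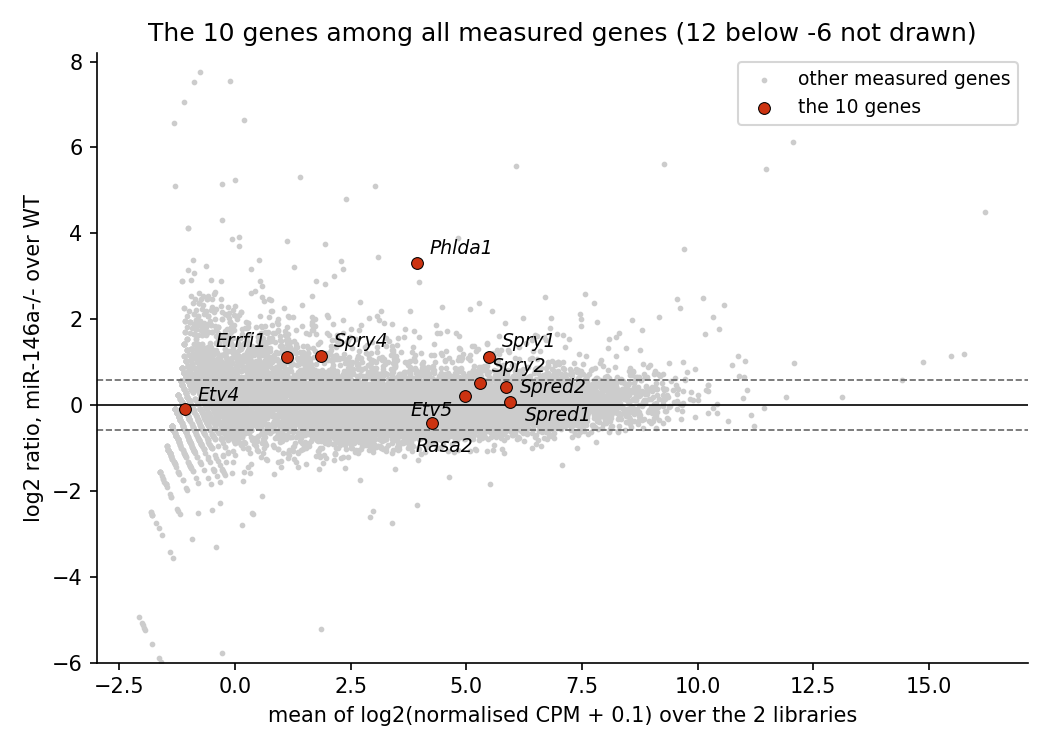
Log2 ratio of miR-146a-/- over WT against mean level for all 13880 measured genes (grey) and the 10 genes (labelled), with dashed lines at 1.5-fold and 12 genes below -6 not drawn. Phlda1 lies far above most grey points at its level, though not all. Spry1 lies near the upper edge of the grey cloud, and Spred1, Spred2, Etv5 and Rasa2 within it.

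Features of the transcripts that did not enter the choice of genes were read from the annotation. The letters TATTTAT, the core of AU-rich elements that bind decay factors such as tristetraprolin, are shown because they were found in each of the 3 called genes. The first such window in the 3′ untranslated regions of the higher genes Phlda1 and Spry1 is printed, with those of Spry2 and Errfi1 beside them, 5′ to 3′ and with the letters in capitals. The windows lie at chr10:111508251-111508277 (plus strand), chr3:37644410-37644436 (plus), chr14:105892093-105892119 (minus) and chr4:150868862-150868888 (plus), in GRCm38.
Phlda1: gagatgacttTATTTATggacctttgg
Spry1: ttgtaaagaaTATTTATtatgcgaatc
Spry2: gtgtaaagaaTATTTATttgaagtttt
Errfi1: ttatattactTATTTATgacaccgtta

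Phlda1 had 2 such matches in 612 bases, or 3.27 per kilobase, the densest of the 10. Spry2 had 2.34 per kilobase, Spry1 1.91 and Spry4 1.12, while Errfi1, Spred1, Etv5 and Spred2 ran from 0.719 down to 0.388, and Etv4 and Rasa2 had none. Of the 8 genes with any match 3 were called and 5 were not. Because these letters were picked for their presence in the called genes, this count supports nothing. The shorter letters ATTTA, contained in TATTTAT, occurred in 9 of the 10 and in 69.93% of the 12249 genes with a 3′ untranslated region.

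Of those 12249 genes, 30.05% held TATTTAT at least once. Of the 1315 genes with 2 or more matches 6.24% were called higher, and of the 8568 with none 4.06%. Genes with 2 or more also had longer regions, with a median of 2811 bases against 868, so matches and length move together. The difference between the 10 genes was not tested.

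Promoter windows from RefSeq (GRCm38.p6, 250 bases before to 50 after the start) were matched by symbol for 7 of the 10 genes (all but Phlda1, Spry4 and Etv4), 9 windows in all. They were searched on both strands for an ETS motif (CCGGAAGT), AP-1 motifs (TGACTCA and TGAGTCA), the cyclic AMP response element (TGACGTCA) and the CArG box of serum response factor. The only match was TGACGTCA in 1 of the 2 windows of Errfi1. That element occurs in 1.79% of 32851 windows in the table, the ETS motif in 3.89%, the AP-1 motifs in 5.2% and the CArG box in 1.63%. The Errfi1 window (chr4:150854820-150855119, plus strand) is printed with the element in capitals, and that of Spry1 (chr3:37639697-37639996, plus strand), the called gene with a window, in lower case for comparison.
Errfi1: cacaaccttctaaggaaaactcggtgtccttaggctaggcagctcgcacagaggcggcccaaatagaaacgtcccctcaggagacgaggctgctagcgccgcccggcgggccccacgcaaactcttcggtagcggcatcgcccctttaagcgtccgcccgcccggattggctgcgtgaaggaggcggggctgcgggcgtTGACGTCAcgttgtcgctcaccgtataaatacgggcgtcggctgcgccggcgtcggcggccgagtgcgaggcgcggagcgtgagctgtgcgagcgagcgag
Spry1: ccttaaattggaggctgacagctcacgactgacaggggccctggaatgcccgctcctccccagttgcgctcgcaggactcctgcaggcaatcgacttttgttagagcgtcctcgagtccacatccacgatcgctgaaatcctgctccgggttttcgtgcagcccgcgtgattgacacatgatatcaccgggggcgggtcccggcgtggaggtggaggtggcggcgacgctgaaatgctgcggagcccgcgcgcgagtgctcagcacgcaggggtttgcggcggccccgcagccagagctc

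The printed windows held 41 CpG (Errfi1) and 29 CpG (Spry1), and the other Errfi1 window held 2 CpG and 42.0% GC. The median over the 9 windows was 29 CpG and 64.3% GC, against 7 CpG and 52.7% GC over all 32851 windows. The 9 windows are of measured genes, whereas the 32851 were not limited to them, so the sets are unlike.

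The rest of the pathway was read in lists to describe whether its other parts differed between the libraries as the 10 genes did. Like the 10 genes, the lists were chosen with earlier results of these data known, so their counts are not a test. The Ras to ERK cascade itself had 2 of 27 measured genes higher and 0 lower, with a median log2 ratio of -0.01, the same as that of all measured genes. The higher ones were Ksr2, a scaffold of RAF and MEK, at 1.53 (1.17 to 1.90) with 125 and 130 counts, and the adaptor Gab1 at 0.82 (0.69 to 0.95). Only 1 of the 27 was higher by protein-coding totals and beyond 2-fold, and by total counts 0 were higher and 15 lower. The GTPase gene Hras was at -0.45 and the ERK-activated kinase genes Rps6ka2 and Rps6ka3 at -0.57 and -0.34, none called.

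Close relatives of the 10 genes were not called in either direction, 0 of 13, with a median of -0.06. Spred3, the third SPRED gene, was the highest of them at 0.68 (0.47 to 0.88), from 560 and 321 counts. Phlda3, a relative of Phlda1, was the lowest at -1.12 (-1.76 to -0.54), with 170 and 28 counts. Phlda2 was at 0.47 (0.01 to 0.91), so the PHLDA genes did not share one ratio.

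Receptor tyrosine kinases had a median of 0.10, and of 20 measured 0 were higher and 1 lower. Kit was at 0.38 and Flt3, the cytokine receptor of multipotent progenitors, at -0.23, neither called. The lower one was Tyro3 at -1.60, with 137 and 16 counts, and beyond 2-fold 0 were lower. Receptor ligands had a median of 0.39, with 9 of 12 measured at a positive ratio and 0 lower. Of the 12, 1 was higher, Areg, which encodes the EGF receptor ligand amphiregulin, at 2.89 (1.94 to 4.11) from only 11 and 31 counts. Egfr, which encodes that receptor, had 1 and 0 counts and was not measured. Of 12 ubiquitin ligases and phosphatases that act on Sprouty, SPRED or MIG6 proteins or on ERK 2 were higher. They were the ERK phosphatase Dusp6 at 0.85 (0.78 to 0.93) and the ligase Cblb at 0.72 (0.61 to 0.83), and the list median was 0.03. The count was 1 by protein-coding totals, with no filter and with the length and GC adjustment, and 0 beyond 2-fold and by total counts, where 6 were lower. Dusp6 is also in the list of other ERK output genes, and Areg in both that list and the ligand list.

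Other ERK output genes had 10 of 19 higher and 0 lower, with a median of 0.65. Beyond 2-fold 6 were higher, and by protein-coding totals 9 were higher and 1 lower. Egr1 (2.498) and Fosl1 (2.19, from 193 and 316 counts), both transcription factors, were near the top. At the other end Ccnd1, which encodes cyclin D1, was at -0.56, the potassium channel gene Kcnn4 at -0.29 and Ets1 at -0.27, none called. This list shares 4 genes with the immediate early list, and the 15 measured genes outside it had 7 higher and a median of 0.62.

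Immediate early genes, a rapid first wave of transcription after many stimuli and after tissue handling, had 24 of 26 higher and a median of 1.98. Summed, they reached 6040 (WT) and 23107 (miR-146a-/-) normalised CPM. Of the 10 genes Phlda1 alone had a ratio above that median, 7 lay between it and the median of all genes, from Spred1 at 0.07 to Spry4 at 1.15, and Etv4 and Rasa2 lay below both. The part of the early response in the ratios of the Sprouty genes and Phlda1 was not tested.

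**Figure D4:**
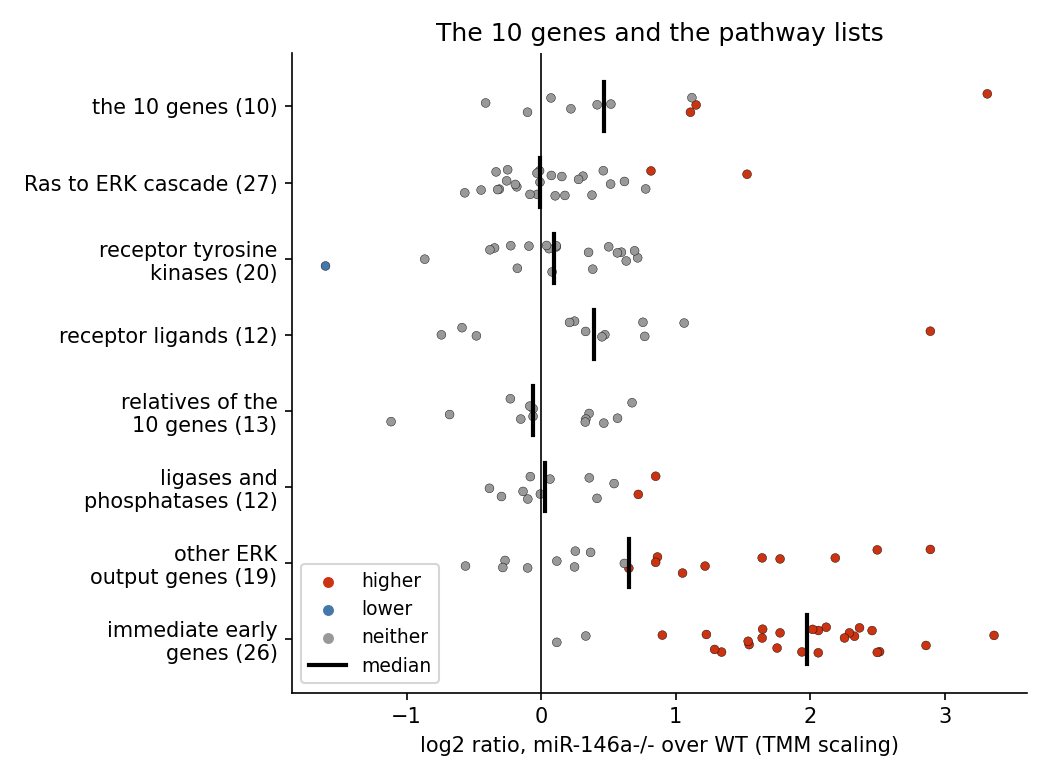
Log2 ratio of miR-146a-/- over WT under TMM scaling for the 10 genes and for the measured genes of 7 pathway lists (number in brackets), coloured by call, with a bar at each median. Medians of the cascade, receptor kinases, relatives, and ligases and phosphatases lie near 0. That of the receptor ligands is 0.39. Those of the other ERK output genes and the immediate early genes lie further right. The 10 genes run from -0.41 to 3.32, with a median of 0.47.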

How the data were processed

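RNA-seq of 1 WT and 1 miR-146a-/- library was analysed from the whole-number read counts per Ensembl gene that the authors deposited, without normalisation. Per the file headers, junction reads were placed on the genome and duplicates flagged. STAR 2.5.3a, Salmon 0.9.0 and mm10 appear in the submitters' processing notes without roles. The sources used here give neither a counting program nor a strand setting.

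Names, positions, lengths and 3′ untranslated regions came from GENCODE M21 (GRCm38), in which 37693 of 39017 identifiers had a name. TMM factors from edgeR 4.0.16, run under R 4.3.3, scaled library sizes using genes with at least 20 summed counts. With 1 library per group no test was run. Ratios used a prior count of 0.5, which does not enter the intervals. Intervals are exact binomial ones that cover counting error only, with the scaling held fixed. Reads are not independent molecules, so the intervals can be too narrow even for that error. Ratios, intervals and calls were tested on simulated data. Both simulated libraries were Poisson draws from the WT counts with some genes changed. That test therefore does not cover the difference in composition between the real libraries or variation beyond counting error. Alternatives included DESeq2 1.42.0 size factors. Python 3.11.15 and scipy 1.17.1 gave the intervals.

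The members and lists were chosen with earlier results of these data known. Apart from the genes listed next, those named from a pathway list are among its 3 highest, 3 lowest or 2 most abundant. Kit is also among the 2 most abundant LSK markers, and the abundant genes of the other marker lists are not all named. Ly6a, Cd3e, Cd3d, Cd3g, Cd8a, Cd4, Egfr, Xist, the Y-linked genes, TATTTAT and the gene pairs were chosen after values were seen.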

Additional observations from a re-analysis of the deposited data

How the results depend on the processing

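No paired analysis was possible because each genotype has 1 library. Scaling was the choice that moved these values most. By total counts the median of all genes shifted by -0.82 on the log2 scale, 1 of the 10 genes was higher and 2 lower, and their median was -0.35. The log2 ratios were then 2.496 for Phlda1, 0.29 for Spry1, 0.33 for Spry4, 0.31 for Errfi1, -0.30 for Spry2, -0.41 for Spred2, -0.60 for Etv5, -0.75 for Spred1 and -1.23 for Rasa2, and 140 and 7077 of all genes were higher and lower. By protein-coding totals, which shifted the median by -0.16, Spry1 was at 0.95, Spry2 at 0.36, Spred2 at 0.25, Etv5 at 0.059 and Spred1 at -0.089. The median of the 10 was then 0.31, and 574 of all genes were lower. Beyond 2-fold, a stricter rule by construction, 1 of the 10 was higher, with 294 and 42 of all genes. All-gene counts were 491 and 130 with at least 200 counts, where Spry4, Errfi1 and Etv4 drop out, and 322 were lower with no filter. The cause was not tested for the filters. Size factors of DESeq2, upper-quartile scaling and thinning of WT counts left the calls of Phlda1, Spry1 and Spry4 in place. A prior count of 5 enters the ratios but not the intervals, so it could not change a call. Etv4 fell under the minimum after thinning. By total counts the cascade list had 0 higher and 15 lower, the other ERK output list 5 and 4, receptor kinases 0 and 8, relatives of the 10 genes 0 and 6, ligases and phosphatases 0 and 6, receptor ligands 1 and 2, and immediate early genes 20 and 1. The number higher in the cascade was 1 by protein-coding totals and beyond 2-fold. That of ligases and phosphatases was 0 beyond 2-fold, and 1 by protein-coding totals, with no filter and with the length and GC adjustment. Of the relatives 1 was lower with no filter and by protein-coding totals. Of the receptor kinases 1 was higher and 0 lower with at least 200 counts, and 0 were lower beyond 2-fold. The other ERK output list had 6 higher beyond 2-fold, and 1 lower by protein-coding totals.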
